A study of Homo sapiens with 9 samples.

Results

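The histone genes of the replication-dependent clusters were followed in LNCaP cells, an androgen-responsive human prostate cancer line, given androgen with or without celastrol. The group was taken by gene symbol, from the older names beginning with HIST1, HIST2 or HIST3 or the current names H2AC, H2BC, H3C, H4C and H1-1 to H1-6, wherever an array probe set was assigned to 1 gene. It came to 51 of the 12165 genes measured, with 6 linker H1 genes, 11 H2A, 14 H2B, 10 H3 and 10 H4 genes, of which 47 lie on chromosome 6 and 4 on chromosome 1. No pseudogene matched the names, and H3-4 entered through its older name HIST3H3. Where a gene had several such probe sets, the 1 with the highest mean was used.

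All 9 cultures first spent 2 days in serum stripped of its hormones with charcoal. The vehicle group then received ethanol and DMSO, the androgen group received 1 nM R1881, a synthetic androgen, with DMSO, and the androgen plus celastrol group received 1 nM R1881 with 1.25 µM celastrol, a plant triterpenoid. Each group had 3 arrays, labelled as biological replicates of this 1 line without further word on how the cultures were separated, so the p-values measure the spread between these arrays. The treatment time is 24 h in the labels of all groups, except that the titles of the androgen arrays say 6 h, and neither comparison that uses those arrays can separate treatment from time should 6 h be the true value.

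Replication-dependent histone genes supply the H2A, H2B, H3 and H4 proteins that form the core of new nucleosomes and the H1 proteins that bind the linker DNA between them. They are transcribed mostly in S phase, and their mRNAs end in a conserved stem-loop held by SLBP, the stem-loop binding protein, rather than in a poly(A) tail. Some of these genes also give polyadenylated mRNAs, among them H1-2, H2AC6, H2BC5, H2BC12 and H2BC21, and the standard Affymetrix labelling primes cDNA synthesis at poly(A) tails. Many genes within a core histone family are similar in coding sequence, so a probe set can bind RNA of several members. Affymetrix marks probe sets likely to do so with the endings _s and _x, which 5 and 8 of the 51 members carried. A change at 1 member can therefore include RNA of its close relatives.

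Signals of most members were low. The median of the 12165 genes lay between 104 and 122 intensity units on the 9 arrays, 34 of the 51 members had a mean below the median gene, and 29 stayed below 100 units on every array. The 5 members with a mean above 1000 were H1-2, H2AC6, H2BC5, H2BC12 and H2BC21, the same 5 genes named above for their polyadenylated transcripts, a list drawn up with results of these data known. Intensities of different probe sets are not on a common scale, so these levels order no gene against another. Replicate 3 of the vehicle group stood apart. The SD of deviations from the group mean was 0.31 log2 units on vehicle replicate 3 against 0.12 to 0.20 on the other 8 arrays, and its deviations moved with those of androgen replicate 3 (Pearson correlation across genes 0.63). Among the 34 dim members, vehicle replicate 3 was the highest of its group in 18 and androgen replicate 3 in 17. For all genes below the median the shares were 43.9% and 33.8%. H3C2 shows the pattern, with 45.6, 39.8 and 100.2 units in vehicle, 43.9, 35.3 and 95.8 in androgen and 49.9, 37.0 and 44.1 in androgen plus celastrol. The cells carried the markers of their line: HOXB13, FOLH1, KRT8, KRT18 and KLK3 read 1143 to 15899 units on all arrays. The 6 measured markers of blood, stroma, endothelium and basal epithelium read 25.7 to 86.1. Their summed signal was 259 to 278 in vehicle, 222 to 250 in androgen and 248 to 270.0 in androgen plus celastrol. Of these 6, only COL1A1 passed the test with celastrol (log2 difference 0.42 ± 0.12, SE, adjusted p = 0.0446). Their part in the results was not tested.

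Cluster histone promoters share short elements, and 4 are shown because they head genes the results turn on. H4C8, H4C2 and H2AC8 had the 3 largest increases with celastrol, and H2BC21, on chromosome 1, was chosen after its values were seen. Each window holds 250 bases before and 50 after the RefSeq transcript start on GRCh38.p14, written 5′ to 3′ on the gene's strand. Capitals mark 3 motifs on either strand: the CCAAT box, the TATA box spelled TATAAA, and the octamer motif ATTTGCAT, bound by factors such as POU2F1. The windows are chr6:26285485-26285784 (minus strand) for H4C8, chr6:26027234-26027533 (minus) for H4C2, chr6:26216671-26216970 (plus) for H2AC8 and chr1:149886633-149886932 (minus) for H2BC21.
H4C8: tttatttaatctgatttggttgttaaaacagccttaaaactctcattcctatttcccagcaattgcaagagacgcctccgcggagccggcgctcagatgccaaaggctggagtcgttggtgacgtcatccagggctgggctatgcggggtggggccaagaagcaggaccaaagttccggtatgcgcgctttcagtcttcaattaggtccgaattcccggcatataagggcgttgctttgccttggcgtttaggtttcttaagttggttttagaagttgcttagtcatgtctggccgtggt
H4C2: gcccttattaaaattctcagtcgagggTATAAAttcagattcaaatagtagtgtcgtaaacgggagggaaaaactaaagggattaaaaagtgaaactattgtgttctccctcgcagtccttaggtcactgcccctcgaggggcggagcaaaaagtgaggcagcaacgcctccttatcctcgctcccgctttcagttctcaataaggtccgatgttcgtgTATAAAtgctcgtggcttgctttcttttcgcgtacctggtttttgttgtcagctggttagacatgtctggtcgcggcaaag
H2AC8: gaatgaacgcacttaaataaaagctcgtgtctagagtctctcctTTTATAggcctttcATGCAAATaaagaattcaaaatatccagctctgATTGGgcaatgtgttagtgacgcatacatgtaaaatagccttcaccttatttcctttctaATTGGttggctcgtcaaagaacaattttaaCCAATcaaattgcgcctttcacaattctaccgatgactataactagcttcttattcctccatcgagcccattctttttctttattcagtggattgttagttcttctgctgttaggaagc
H2BC21: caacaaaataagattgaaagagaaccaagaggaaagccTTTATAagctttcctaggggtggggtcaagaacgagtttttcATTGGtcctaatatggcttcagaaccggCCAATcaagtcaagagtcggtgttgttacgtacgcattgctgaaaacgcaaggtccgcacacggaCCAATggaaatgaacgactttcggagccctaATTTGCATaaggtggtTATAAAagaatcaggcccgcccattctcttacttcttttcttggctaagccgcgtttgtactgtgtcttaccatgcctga

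The elements were spread unevenly over the families. Of the 51 members 47 had promoter entries, 50 in all. ATTTGCAT or its reverse complement ATGCAAAT stood in 12 of 16 H2B and 7 of 11 H2A promoters, in 1 of 9 H3 promoters and in none of the 6 H1 or 8 H4 promoters. The windows are not independent: H2BC5 and H2BC12 enter with 2 nearly identical windows each, neighbouring head-to-head genes share most of theirs, and the 1 H3 match lies in the H3C4 window that overlaps that of H2BC7. Over all promoters in the table it stood in 1.77%, and over the 50 member promoters in 40.0%. CCAAT or ATTGG stood in every H1, H2A, H2B and H3 window and in 3 of 8 H4 windows, against 34.6% of all promoters. TATAAA or TTTATA stood in 66.0% of the member windows and 11.5% of all. Motifs were searched separately, so matches of different motifs can overlap, as can those of TATAAA and its reverse complement. None of them occurs in the H4C8 window printed above, the H4C2 window has TATAAA at 2 places, and both H2AC8 and H2BC21 hold all 3 motifs. These are matches of letters and were not tied to binding.

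Across the group, few members moved and the direction was mixed. The arrays with celastrol and androgen were set against those with androgen alone to read the effect of celastrol under hormone: 6 members rose (9.0% of all genes rose), 1 fell (7.24% of all genes fell) and 44 did not pass. Called here means an adjusted p below 0.05 in limma with Benjamini-Hochberg adjustment over all 12165 genes. Androgen compared with vehicle, which asks what the hormone changed in starved cells, called 1 member higher (7.17% of all genes) and 1 lower (5.84%), with 49 not called. Androgen plus celastrol compared with vehicle called 4 higher (13.3%) and 2 lower (10.0%), with 45 not called. In either direction 2, 7 and 6 members were called against androgen-vehicle, celastrol-androgen and celastrol-vehicle backgrounds of 13.0%, 16.2% and 23.3% of genes. The share of members was 3.92%, 13.7% and 11.8%, below the background each time. The first and the second comparison share the androgen arrays with opposite sign, so a high or low androgen group pushes them in opposite directions.

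The median member hardly differed from the median gene. With celastrol against androgen the medians were 0.02 for members and 0.02 for all genes on the log2 scale, with members from -1.68 to 0.78. With androgen against vehicle they were -0.05 and -0.04, with members from -0.58 to 0.60, and for androgen plus celastrol against vehicle 0.05 and -0.01, with members from -1.69 to 1.12. Arrays of the groups did not overlap for 15 members in the celastrol-androgen comparison, 12 of them higher (20.4% of all genes) and 3 lower (15.5%), where 35.9% of all genes did not overlap. The number was 6 for androgen against vehicle (28.3% of genes), with 2 higher (14.1%) and 4 lower (14.2%). It was 10 for androgen plus celastrol against vehicle (37.2%), with 5 higher (20.1%) and 5 lower (17.1%). Brightness matters for such shares. Of the 17 members above the median gene 4 were called with celastrol against androgen (23.5%), where 29.0% of all genes above the median were, and of the 34 below it 3 were (8.82%), where 3.50% of all such genes were. In the androgen comparison 1 of the 17 bright members was called (5.88%), where 22.8% of all bright genes were. Of the 34 dim members 1 was called (2.94%), where 3.21% of all dim genes were. For androgen plus celastrol against vehicle, 23.5% of bright members and 40.4% of bright genes were called. Of dim members 5.88% were, and of dim genes 6.25%.

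**Figure D1:**
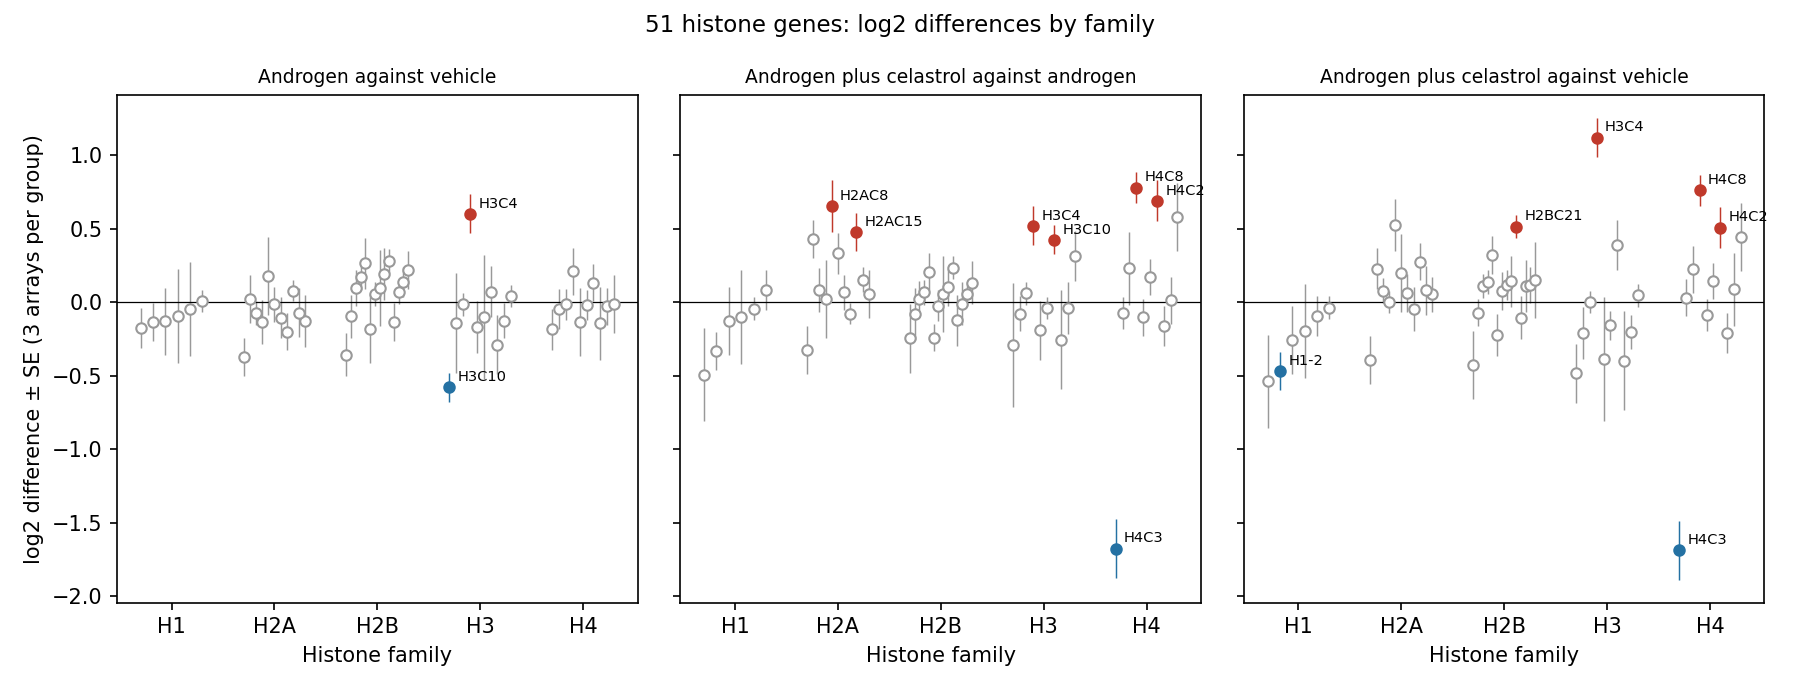
Fitted log2 differences of the 51 members in each of the 3 comparisons, grouped by histone family, with 1 point per gene: red marks members called higher, blue members called lower and open grey those not called, and bars show the SE. Most points lie near 0 in every family, and H4C3 stands alone at -1.68 with celastrol against androgen.

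The H4 family held both the largest fall and the largest rise among the members with celastrol against androgen. All H4 genes measured here except H4C7 encode the same or nearly the same protein, the partner of H3 in the nucleosome core. Of 10 members 2 rose (9.0% of all genes), 1 fell (7.24%) and 7 were not called, and their median difference was 0.09. H4C3 read 463, 528 and 415 units on the vehicle arrays, 449, 492 and 449 with androgen, and 108, 199 and 141 with androgen plus celastrol. Every celastrol array lay below every other array, while vehicle and androgen overlapped. Means were 469 ± 57.0 (SD, n = 3), 463 ± 24.6 and 149 ± 46.2. H4C3 fell 3.20-fold against androgen (log2 difference -1.68 ± 0.20, SE, adjusted p = 0.000718) and 3.22-fold against vehicle (-1.69 ± 0.20, adjusted p = 0.000377). Androgen alone gave -0.01 ± 0.20 (adjusted p = 0.982). Its promoter had no entry in the table.

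H4C8, whose promoter is printed above, went the other way. It read 672, 702 and 545 units in vehicle, 603, 630.3 and 652 with androgen, and 1043, 1086 and 1104 with androgen plus celastrol. The 3 celastrol arrays lay close together above all others. The rise was 1.72-fold against androgen (0.78 ± 0.10, adjusted p = 0.00124) and 0.76 ± 0.10 on the log2 scale against vehicle (adjusted p = 0.000802). The probe set has the _s ending. A second probe set for H4C8 read 26.4 to 46.4 units on all arrays and differed by 0.03 with celastrol. With the lowest-mean probe set per gene the H4C8 adjusted p was 0.959 against androgen and 0.374 against vehicle, and with the mean of its probe sets it was 0.0674 against androgen.

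H4C2 was dim. It read 30.4, 31.3 and 29.8 units in vehicle, 25.3, 28.6 and 26.8 with androgen, and 50.5, 34.2 and 47.1 with androgen plus celastrol, again with no overlap between celastrol and the rest. It rose by 0.69 ± 0.14 against androgen (adjusted p = 0.00974). Against vehicle it rose by 0.51 ± 0.14 (adjusted p = 0.0289), a call lost when any vehicle array or celastrol replicate 1 or 3 was left out (adjusted p 0.0563 to 0.0974). H4C5 read 82.1, 80.0 and 49.4 units in vehicle, which overlapped with celastrol (0.44 ± 0.23, adjusted p = 0.210). Its celastrol arrays lay above its androgen arrays, at 72.1, 98.3 and 115 against 71.8, 58.7 and 58.0 units. The difference of celastrol from androgen did not pass (0.58 ± 0.23, adjusted p = 0.142). The other 6 H4 genes, H4C1, H4C4, H4C6, H4C7, H4C9 and H4C13, lay between -0.16 and 0.23 in that comparison.

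In the H3 family, whose proteins carry many of the best known histone marks, 2 of 10 members rose with celastrol against androgen (9.0% of all genes) and none fell (7.24%), with a median of -0.04. H3C4 rose in each comparison and was the only member called in all 3. It read 73.9, 82.7 and 60.3 units in vehicle, 113, 114 and 100.1 with androgen, and 138, 163 and 168 with androgen plus celastrol, and no 2 groups overlapped. The differences were 0.60 ± 0.13 for androgen against vehicle (adjusted p = 0.0171), 0.52 ± 0.13 for celastrol against androgen (adjusted p = 0.0289) and 1.12 ± 0.13 for androgen plus celastrol against vehicle (adjusted p = 0.000382, 2.17-fold). A second H3C4 probe set with the _x ending gave 0.16, 0.31 and 0.46, and in a fit of all 22215 probe sets none of these passed (adjusted p 0.672, 0.298 and 0.0750). Leaving out androgen replicate 1 or 2 ended the androgen call (adjusted p 0.0683 and 0.0737). The celastrol-androgen call ended when any androgen array or celastrol replicate 2 or 3 was dropped (0.0678 to 0.106).

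H3C10 was the 1 member that fell with androgen. It read 804, 867 and 742 units in vehicle, 547, 521 and 545 with androgen, and 696, 664 and 810.0 with androgen plus celastrol. The androgen arrays lay below all 6 others, and the celastrol arrays overlapped with vehicle. H3C10 fell 1.49-fold with androgen (-0.58 ± 0.10, adjusted p = 0.00454) and was higher with celastrol than with androgen alone (0.42 ± 0.10, adjusted p = 0.0192). Androgen plus celastrol differed from vehicle by -0.16 ± 0.10 (adjusted p = 0.302). The second of these calls was lost without any androgen array or celastrol replicate 3 (adjusted p 0.0576 to 0.0754). Both differences rest on the same 3 androgen arrays. The other 8 H3 genes were not called in any comparison, and ranged from -0.29 (H3C2) to 0.32 (H3C8) with celastrol against androgen.

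**Figure D2:**
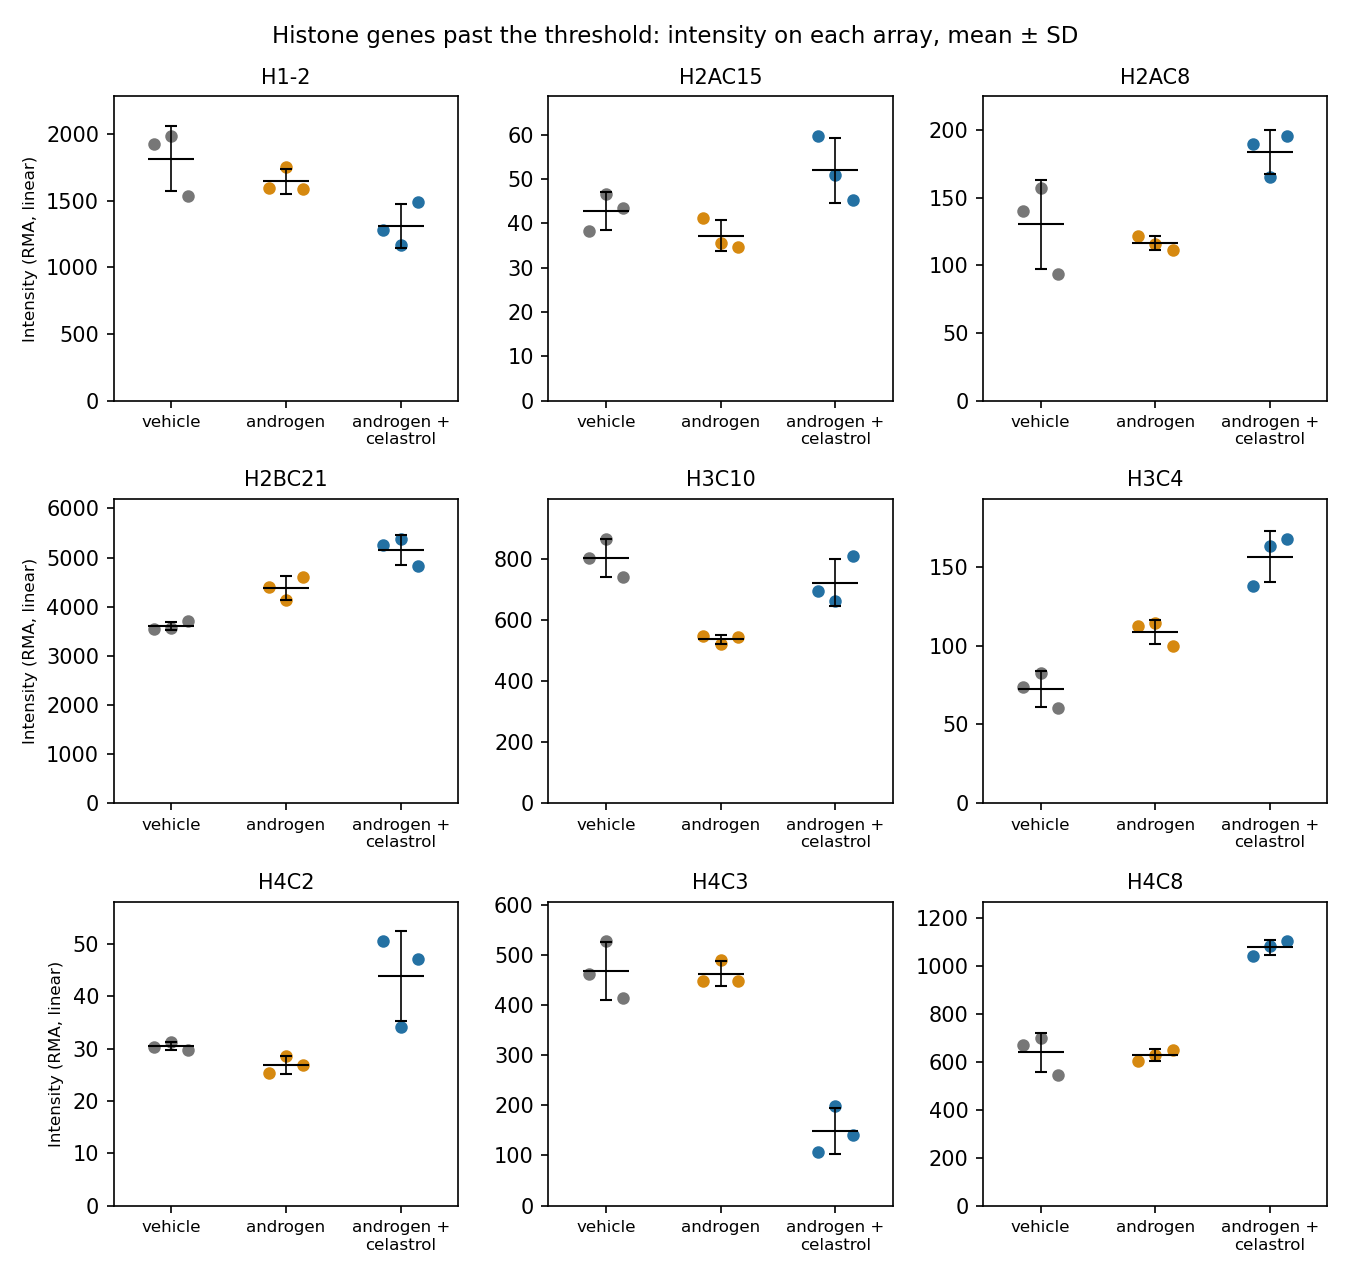
Intensity on each of the 9 arrays for the members called in at least 1 comparison, with 1 panel per gene, points for arrays and bars for the group mean with its SD (n = 3), on axes that start at 0. H4C3 drops from 463 to 149 units with celastrol, H4C8 climbs from 628 to 1078, and H3C10 is lowest in the androgen group.

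Among the 11 H2A genes 2 rose with celastrol against androgen (9.0% of all genes), none fell (7.24%), and the median was 0.09. H2A pairs with H2B in the nucleosome core. H2AC8 read 140.3, 157 and 93.6 units in vehicle, 122, 116 and 112 with androgen, and 190.3, 166 and 196 with androgen plus celastrol. The celastrol arrays lay above both other groups, which overlapped. The rise was 0.66 ± 0.18 against androgen (adjusted p = 0.0352), and against vehicle the difference of 0.53 ± 0.18 did not pass (adjusted p = 0.0623). Leaving out vehicle replicate 1, any androgen array or any celastrol array ended the first call (adjusted p 0.0503 to 0.110).

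H2AC15 was dimmer, with 38.2, 46.6 and 43.5 units in vehicle, 41.2, 35.7 and 34.7 with androgen, and 59.7, 50.9 and 45.2 with androgen plus celastrol. The celastrol arrays were all above the androgen arrays and overlapped with vehicle. It rose by 0.48 ± 0.13 against androgen (adjusted p = 0.0349) and differed from vehicle by 0.28 ± 0.13 (adjusted p = 0.164). Dropping androgen replicate 2 or 3 or celastrol replicate 1 or 2 ended the call (adjusted p 0.0902 to 0.121), and after each array's median was subtracted (0.0775). H2AC17 came close with 131, 143 and 128 units in androgen and 163, 163 and 222 with celastrol (0.43 ± 0.13, adjusted p = 0.0528). Vehicle read 186, 163 and 172 units and overlapped with celastrol (0.06 ± 0.13, adjusted p = 0.770). The androgen arrays of H2AC17 lay below both other groups, at -0.37 ± 0.13 against vehicle (adjusted p = 0.1065). H2AC6, another gene with polyadenylated transcripts, read 3220.5, 3009 and 3538 units in vehicle, 3223, 3004 and 3041 with androgen, and 3508, 3289 and 3500.2 with androgen plus celastrol. Celastrol arrays were above the androgen arrays by 0.15 ± 0.08 (adjusted p = 0.305), and overlapped with vehicle. H2AC11 was the H2A gene with the largest decrease in estimate, -0.32 ± 0.16 against androgen (adjusted p = 0.259).

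Probe sets shared by several histone genes were outside the 51 and are given from the fit over all 22215 probe sets. Both probe sets assigned to H2AC18 and H2AC19, which are nearly identical neighbours on chromosome 1, rose with celastrol. The brighter read 4961, 5061 and 4829 units in vehicle, 4356, 4618 and 4422 with androgen, and 6403, 6408 and 6982 with androgen plus celastrol. The dimmer read 1626 to 1842 in vehicle, 1649 to 1773 with androgen and 2484 to 2834 with androgen plus celastrol. Against androgen the differences were 0.56 ± 0.08 (adjusted p = 0.00167) and 0.60 ± 0.09 (adjusted p = 0.00267), where 6.91% of all probe sets rose and 5.66% fell. Against vehicle they were 0.41 (adjusted p = 0.00501) and 0.58 (adjusted p = 0.00197), where 11.1% rose and 7.94% fell. With androgen alone, where 6.04% rose and 4.47% fell, neither passed (-0.15 ± 0.08 and -0.02 ± 0.09). The probe set assigned to H2AC18 alone read 44.7 to 93.3 units and differed by 0.02 ± 0.26. Of the 4 other shared probe sets, that of H4C14 and H4C15 rose against vehicle (0.37 ± 0.11, adjusted p = 0.0395), and those of H4C11 with H4C12 and of H2BC4 with H2BC8 passed in no comparison.

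None of the 14 H2B genes was called with celastrol against androgen (16.2% of all genes were) or with androgen against vehicle (13.0%). In androgen plus celastrol against vehicle none fell (10.0% of all genes) and 1 rose (13.3%). That gene was H2BC21, a chromosome 1 gene known to give a polyadenylated transcript. It read 3540.3, 3567 and 3700.0 units in vehicle, 4393, 4129 and 4605 with androgen, and 5257, 5384 and 4818 with androgen plus celastrol. The groups followed that order without overlap. The step from vehicle to androgen was 0.28 ± 0.08 (adjusted p = 0.0530) and the step from androgen to celastrol 0.24 ± 0.08 (adjusted p = 0.0855), neither called. Across both steps the difference was 0.52 ± 0.08 (adjusted p = 0.00167). The androgen difference crossed the threshold with a pseudocount of 16 (adjusted p = 0.0335), after a filter on the dimmest genes (0.0278), with the mean of probe sets (0.0480) and with an intensity trend in the variance prior (0.00494). The celastrol step crossed it with that trend (0.0115) and after the filter (0.0468). H2BC21 has only 1 probe set, so the mean of probe sets left its own values as they were and changed those of other genes.

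H2BC12, at high signal, read 6934, 6986 and 7833 units in vehicle, 7693, 7549 and 7549 with androgen, and 8548, 7549 and 7812 with androgen plus celastrol, with overlap between all groups. Its differences of 0.07, 0.07 and 0.14 had an SE of 0.08. H2BC5 read 1779, 1779 and 1539 units in vehicle, 1925, 2029 and 1779 with androgen and 1644, 1557 and 1645 with androgen plus celastrol. Its celastrol arrays lay below the androgen arrays, and the difference of -0.24 ± 0.09 did not pass (adjusted p = 0.118). Other H2B genes lay between -0.25 (H2BC14) and 0.21 (H2BC15) in the celastrol-androgen comparison. At an unadjusted p under 0.05 limma counted 13 of the 51 members in that comparison (26.8% of all genes), 5 with androgen against vehicle (23.4%) and 10 with androgen plus celastrol against vehicle (34.5%).

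The 6 linker histone genes were not called with androgen (13.0% of all genes were), or with celastrol against androgen (16.2%), where their median was -0.11. H1-2, the bright member of the family, read 1929.7, 1986 and 1535 units in vehicle, 1597, 1752 and 1590.5 with androgen, and 1278, 1167 and 1493 with androgen plus celastrol. Celastrol arrays lay below all the others. The fall against vehicle was 0.47 on the log2 scale (-0.47 ± 0.13, adjusted p = 0.0288), and the difference from androgen was -0.33 ± 0.13 (adjusted p = 0.131). Without vehicle replicate 1 or 2 or celastrol replicate 1 or 2 the first call was lost (adjusted p 0.0776 to 0.0978). Without vehicle replicate 3 the difference from androgen passed (adjusted p = 0.0481). The other 5, among them the testis gene H1-6, had means below the median gene. H1-1 rested on 2 arrays: it read 58.4 on vehicle replicate 3 and 80.0 on androgen replicate 3 against 30.6 to 42.5 on the other 7. Its difference with celastrol against androgen was -0.10 ± 0.32, and without those 2 arrays it was 0.33 (adjusted p = 0.0405).

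Many cluster histone genes lie head to head, mostly an H2A and an H2B gene reading outward from a shared promoter region. Of the members, 14 formed 7 such pairs with starts 194 to 248 bases apart by the RefSeq annotation. In 3 of the 7 pairs, 1 partner was called with celastrol against androgen and the other was not, and in the other 4 neither was. Of all genes, 16.2% were called in that comparison. H2AC8 rose by 0.66 ± 0.18 while H2BC8, 233 bases away, differed by 0.13 ± 0.15. H3C4 rose by 0.52 ± 0.13 beside 0.10 ± 0.13 for H2BC7, its neighbour at 223 bases from the outer of the 2 starts RefSeq lists for H3C4. H2AC15 rose by 0.48 ± 0.13 beside 0.21 ± 0.13 for H2BC15 at 194 bases. The differences between partners were not tested, and each partner has its own probe set with its own noise. H2AC17 and H2BC17 (0.43 and -0.08) and H2AC13 and H2BC13 (0.33 and 0.02) were not called.

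**Figure D3:**
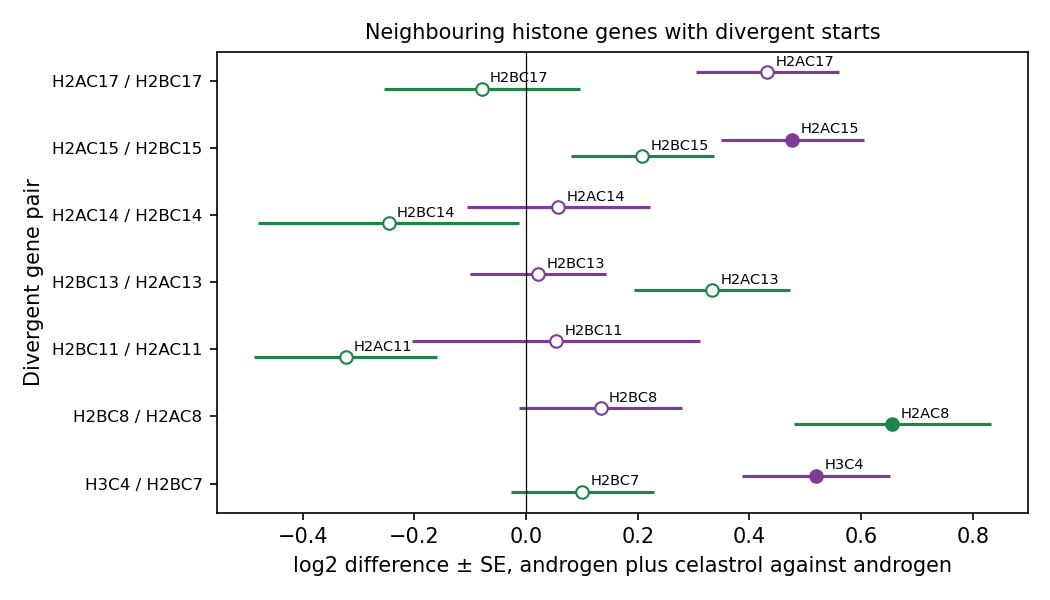
Log2 differences with celastrol against androgen for the 7 head-to-head pairs, with the minus-strand gene in purple and the plus-strand gene in green, filled where the adjusted p is below 0.05, and bars showing the SE. In H2BC8 and H2AC8, H3C4 and H2BC7, and H2AC15 and H2BC15 only 1 partner is filled.

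Lists of related genes are read against the same backgrounds, 9.0% of genes higher and 7.24% lower with celastrol against androgen. Of 20 genes of DNA replication and S phase, 15 fell and none rose with celastrol against androgen, with a median of -0.85. RRM2, a subunit of ribonucleotide reductase, fell by 2.49 on the log2 scale (-2.49 ± 0.20, adjusted p = 0.000108), and TYMS, thymidylate synthase, had -1.76 ± 0.18 (adjusted p = 0.000309). CDC45 (-1.28 ± 0.10) and MCM7 (-1.16 ± 0.12), parts of the replicative helicase, also fell, while RRM1 (-0.19 ± 0.08) and CDT1 (0.21 ± 0.19) did not pass. Against vehicle 13 of the 20 fell (10.0% of all genes fell). With androgen alone 1 rose (7.17% of all genes), CDC6 (0.91 ± 0.15), and 1 fell (5.84%), CCNE2 (-0.43 ± 0.10). With celastrol against androgen H4C3, at -1.68, was the only cluster histone gene called lower, the direction of the 15 S-phase genes. Against vehicle H4C3 (-1.69) and H1-2 (-0.47) were called lower. Whether either belongs with the S-phase genes was not tested.

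Replacement and variant histones come mostly from polyadenylated mRNAs and many are made outside S phase, and 9 of the 11 listed were measured. With celastrol against androgen 5 of the 9 fell and none rose, with a median of -0.54. H1-10, a linker variant, had -1.46 ± 0.19 (adjusted p = 0.00122) and CENPA, the H3 variant of centromeres, -1.25 ± 0.13 (adjusted p = 0.000348). H2AJ rose with androgen (0.99 ± 0.09, adjusted p = 0.000117) and fell with celastrol against androgen (-1.23 ± 0.09, adjusted p = 6.53e-05). H2AX, which marks DNA breaks when phosphorylated, had -0.74 ± 0.09. H2AZ1 (-0.08 ± 0.08) and MACROH2A1 (0.02 ± 0.07) were not called. Against vehicle 5 of the 9 fell (10.0% of all genes), MACROH2A2 among them (-0.68 ± 0.10), a gene that also fell with androgen alone (-0.74 ± 0.10, adjusted p = 0.00136).

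Histone chaperones and carriers, which bring histones to DNA, fell in 8 of 20 cases with celastrol against androgen and rose in 1, with a median of -0.34. ASF1B had -1.09 ± 0.29 (adjusted p = 0.0341) and its paralog ASF1A rose by 0.93 ± 0.07 (adjusted p = 8.00e-05). HJURP, the chaperone of CENPA, had -1.07 ± 0.24 and the importin IPO4 -0.78 ± 0.15. NASP (-0.36 ± 0.16) and CHAF1A (-0.49 ± 0.15) did not pass. With androgen alone 3 of the 20 fell (5.84% of all genes fell), ATRX (-0.55 ± 0.09), NAP1L1 (-0.42 ± 0.07) and ASF1A (-0.33 ± 0.07). Against vehicle 10 fell (10.0% of all genes) and 1 rose (13.3%).

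Of 17 listed genes that transcribe and process histone mRNA 11 were measured. Limma called none with celastrol against androgen (2 at an unadjusted p under 0.05, where 26.8% of all genes were, median 0.06). Against vehicle it also called none (4 at an unadjusted p under 0.05, against 34.5% of genes). In that comparison the arrays of 5 did not overlap, where those of 37.2% of all genes did not. SLBP differed by -0.25 ± 0.08 (adjusted p = 0.0607) and UPF1, which takes part in histone mRNA decay, by 0.51 ± 0.28 (adjusted p = 0.295) against androgen and by 0.79 ± 0.28 (adjusted p = 0.0753) against vehicle. NPAT, a co-activator of histone gene transcription, differed from vehicle by -0.49 ± 0.15 (adjusted p = 0.0524) in androgen plus celastrol. Most of that difference was already present with androgen alone: NPAT means were 211 units in vehicle, 158 with androgen and 153 with androgen plus celastrol. The NPAT difference of androgen from vehicle, -0.42, was not called either. Its arrays with androgen plus celastrol read 117, 171 and 172 units. With androgen 1 fell (5.84% of all genes), CSTF3 (-0.36 ± 0.09, adjusted p = 0.0257). Of the octamer factors, POU2F2 (0.10 ± 0.19) and the co-activator POU2AF1 (-0.44 ± 0.16) were measured, and neither passed in any comparison.

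**Figure D4:**
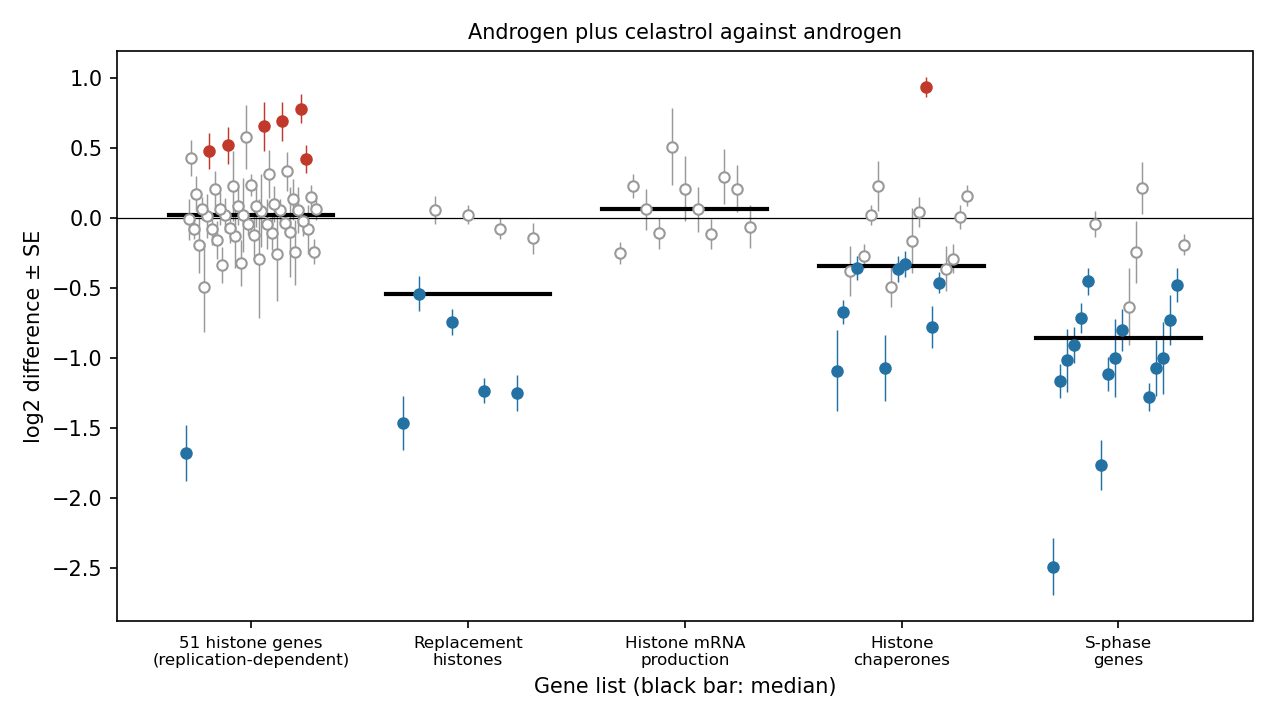
Log2 differences with celastrol against androgen for the cluster histone members and the lists of related genes, with 1 point per gene, red for called higher, blue for called lower and open grey for not called, thin bars for the SE and black bars for each list's median. The S-phase genes lie mostly below 0 with 15 of 20 called lower, while the 51 cluster members centre on 0.02 with 6 called higher and 1 lower.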

How the data were processed

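Total RNA was extracted with Trizol and biotin-labelled cRNA was hybridised to Affymetrix arrays, per the labels' protocols. The deposited table holds linear intensity values that the authors made with RMA, per the submitters' processing notes. The method is meant to bring arrays to a common distribution, which removes differences in total RNA. The deposited arrays still differed, with medians over all probe sets from 72.2 to 80.2 units. The RMA version, scan dates and batches were not given in the sources used here.

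Of 22215 probe sets, 19724 were listed with 1 gene, 568 with several and 1923 with none; 19707 matched the RefSeq gene table. The highest-mean probe set represented each of 12165 genes. Log2 was taken with a pseudocount of 0. All 9 arrays were fitted with limma 3.58.1 in R 4.3.3 (lmFit and eBayes, 6 residual degrees of freedom), and p-values were Benjamini-Hochberg adjusted over all genes. The script was tested on simulated data. The number of arrays, 3 a group, limits the precision; the median SE of a difference was 0.13 log2 units.

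Members and lists were chosen with earlier results of these data known. Any member could be named; array values are given for members called in some comparison and the 3 with the highest mean, and for others the text turns on, and from lists up to 4 genes that passed and 2 that did not. Listed genes outside the 12165 were not analysed here. Same-numbered vehicle and androgen arrays deviated together (correlations 0.40, 0.37 and 0.63), although replicates 1 and 2 also correlated across numbers (0.41 and 0.30). Numbers of the celastrol arrays did not pair with either (-0.29 to 0.21). The main fit had no replicate term. Its SEs, adjusted p-values and calls therefore treat the arrays as unpaired, and the replicate block was only an alternative. Alternatives were a pseudocount, other probe-set rules, array scalings, a low-signal filter, a variance trend, fits of 2 groups, the replicate block and leaving out each array. Promoters came from RefSeq, GRCh38.p14.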

Additional observations from a re-analysis of the deposited data

How the results depend on the processing

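Of 153 member results, 15 were called. Of these, 5 stayed called in every alternative that tested them and 10 were lost in at least 1, while 11 uncalled results passed in some alternative. The 5 include H4C2 with celastrol against androgen, which was tested in 19 of the 20 alternatives because the low-signal filter removed the gene. For androgen against vehicle, the count of members called higher (1) became 2 with a pseudocount of 16, 2 after the filter on the dimmest genes, 2 with the variance trend and 0 with the lowest-mean probe set, and ranged from 0 to 1 when single arrays were left out (0 without androgen replicate 1 or 2). The count lower (1) became 2 in a fit of only the 2 groups and 2 without vehicle replicate 3 and androgen replicate 3, and ranged from 1 to 2. For celastrol against androgen, the count higher (6) became 3 with the lowest-mean probe set and ranged from 2 to 8 when single arrays were left out: 3 without androgen replicate 1, 2 without androgen replicate 2 or 3, and 3 without celastrol replicate 2 or 3. The count lower (1) became 2 with quantile normalization, 2 with the variance trend and 2 without vehicle replicate 3 and androgen replicate 3, and ranged from 1 to 2. For androgen plus celastrol against vehicle, the count higher (4) became 2 with the lowest-mean probe set, 6 after each array's median was subtracted (H2AC8 and H2BC7 added) and 5 with quantile normalization, and ranged from 3 to 4; the count lower (2) became 1 in a fit of only the 2 groups and 1 with the replicate block, and ranged from 1 to 3. The block changed no count for androgen against vehicle; in the comparisons with celastrol arrays, whose numbers did not pair, it ended the calls of H2AC8 (adjusted p 0.0532) and H2AC15 (0.0579) against androgen, leaving 4 higher, and of H4C2 (0.0540) and H1-2 (0.0611) against vehicle. H1-1 with celastrol against androgen went from -0.10 to 0.33 without vehicle replicate 3 and androgen replicate 3, and was between -0.36 and 0.33 over all fits that left out arrays. Member medians moved by less than 0.14 log2 units in every alternative, the SD between replicates of the member median on each array. That SD is larger than the medians themselves, so this check was loose. The celastrol-androgen median lay between -0.03 and 0.06 when single arrays were left out, and so changed sign. That alternative without 2 arrays and the fit of all probe sets were chosen after seeing the data. The counts are given without the share of all genes called in each alternative. They do not show whether members changed more than other genes. Apart from the smaller designs, the cause of these changes was not tested. Dim probe sets limit what can be seen, since 34 of 51 members lay below the median gene.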

Other observations

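Equal intensities on several arrays were common in the deposited table. For 5099 genes (41.9%), and for 22 of the 51 cluster histone members (43.1%), at least 2 arrays held an equal value. H2BC7 had 1 value, 268 units, on 4 arrays, and H2BC12 had 1 value, 7549 units, on 3 arrays. Of the 17 members above the median gene, vehicle replicate 3 was the lowest of its group in 13, and it was so in 63.4% of all genes above the median.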
